A study of Saccharomyces cerevisiae with 24 samples.

Results

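The 31 genes described here encode the yeast enzymes that make histidine, lysine, threonine and the aromatic amino acids tryptophan, phenylalanine and tyrosine, with LYS14, the activator of the lysine pathway. They were chosen by name, as pathways under general amino acid control. All 31 were found in both tables, among 6304 genes with values. General amino acid control is the response in which starvation for an amino acid raises translation of the GCN4 mRNA. The transcription factor Gcn4 then activates genes of most amino acid synthesis pathways together. Histidine is made from phosphoribosyl pyrophosphate and ATP, lysine by the aminoadipate route of fungi, and the aromatic amino acids from chorismate, the product of the shikimate trunk. Threonine leaves the aspartate pathway at homoserine, where a separate branch leads to methionine.

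The genes were followed in Saccharomyces cerevisiae of the CEN.PK background by RNA-seq and by ribosome profiling, which sequences the mRNA fragments that ribosomes protect (footprints). The strains carried wild-type DIM1 (WT) or its alleles E85Q or D87E. Dim1 adds methyl groups to adenosines of the small-subunit rRNA, and the series title links the number of methyl groups there to sulfur-dependent control of translation. Cultures of every genotype grew to log phase in medium free of other sulfur with 1 mM methionine and were then held for 2 h in sulfur-free medium without methionine. Each of the 6 groups had 2 samples, from the numbered strains 172 and 600 (WT), 623 and 625 (E85Q), and 887 and 888 (D87E). Pairs of values below keep that order, so that the first value of an E85Q pair is from strain 623. The labels call the pairs biological replicates. How the alleles were made, and whether the strains of a genotype arose independently, is not given in the sources used here. The p-values therefore measure only the spread between the 2 strains of a group, pooled over the 6 groups.

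Levels are given in RPKM, a read density scaled to gene length and library size. The reads behind them, recovered from the lowest values, numbered 24.2 to 32.2 M per RNA-seq library, 49 to 81.2 M per footprint library with methionine and 21.3 to 46.8 M without. Every member value rested on at least 215 reads. Changes are differences of log2(RPKM + 1), tested two-sided with limma over 4888 genes and called at a Benjamini-Hochberg adjusted p below 0.05. Translational efficiency (TE) is the log2 footprint value minus the log2 mRNA value of the same sample. The median of all tested genes moved with starvation by 0.40 in WT, 0.14 in E85Q and 0.41 in D87E in mRNA, and by 0.23, 0.13 and 0.15 in footprints. Counts relative to these medians are therefore given beside the uncentred ones. All-gene shares refer to uncentred values throughout. None was computed after centring, so the centred counts have no background beside them. Values are shares of each library, so a change in the total mRNA per cell is not measured, and in these bulk cultures a change in every cell cannot be told apart from a change in the share of cells. DIM1 mRNA was present in all samples, at 78.0 and 77.4 RPKM in WT with methionine and 16.8 and 16.4 without it, 92.1 and 91.2 and then 17.2 and 17.7 in E85Q, and 84.4 and 79.8 and then 18.1 and 15.8 in D87E. RPKM values do not show the point variants.

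With methionine, the members made up 1.50% and 1.40% of the summed mRNA RPKM in WT, 1.40% and 1.34% in D87E and 0.951% and 1.07% in E85Q. After 2 h without methionine the shares were 0.993% and 0.882% in WT, 1.15% and 0.924% in D87E and 0.941% and 1.02% in E85Q. The E85Q samples with methionine lay below all WT and D87E samples with methionine, and in E85Q the mRNA shares of the 2 media overlapped. In footprints the shares were 1.44% and 1.31% with and 0.739% and 0.644% without methionine in WT, 1.36% and 1.29% and then 0.874% and 0.669% in D87E, and 0.900% and 1.03% and then 0.782% and 0.888% in E85Q. Here the starved E85Q samples lay below the E85Q samples with methionine, without overlap. Levels per length ranged widely among members in WT with methionine: the mean mRNA level ran from 14.7 RPKM for HIS6 to 1033 RPKM for LYS20, and the mean footprint level from 6.35 RPKM for LYS14 to 1600.4 RPKM for LYS20.

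In mRNA of starved WT, 20 of the 31 members fell and 5 rose, with a median change of -0.43 against 0.40 for all genes. Of all genes tested, 26.7% fell and 60.2% rose. In D87E 17 fell and 8 rose (median -0.27, with 25.5% and 60.7% of all genes). In E85Q the members split, with 11 lower and 10 higher (median -0.16, with 30.3% and 46.5% of all genes). Relative to the median of all genes, the falls numbered 26 in WT, 23 in D87E and 16 in E85Q, and the rises 3, 2 and 8. The all-gene shares do not apply to these centred counts. Footprints gave 21 falls and 3 rises in WT (median -0.76, background 32.1% down and 51.3% up), 19 and 3 in D87E (median -0.62, 35% and 47.3%), and 11 and 8 in E85Q (median -0.15, 30.6% and 44.8%). After centring the footprint calls in E85Q were 13 falls and 5 rises. In each genotype LYS4 and LYS20 had the lowest mRNA changes of all members, as the plot of starvation changes shows.

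**Figure D1:**
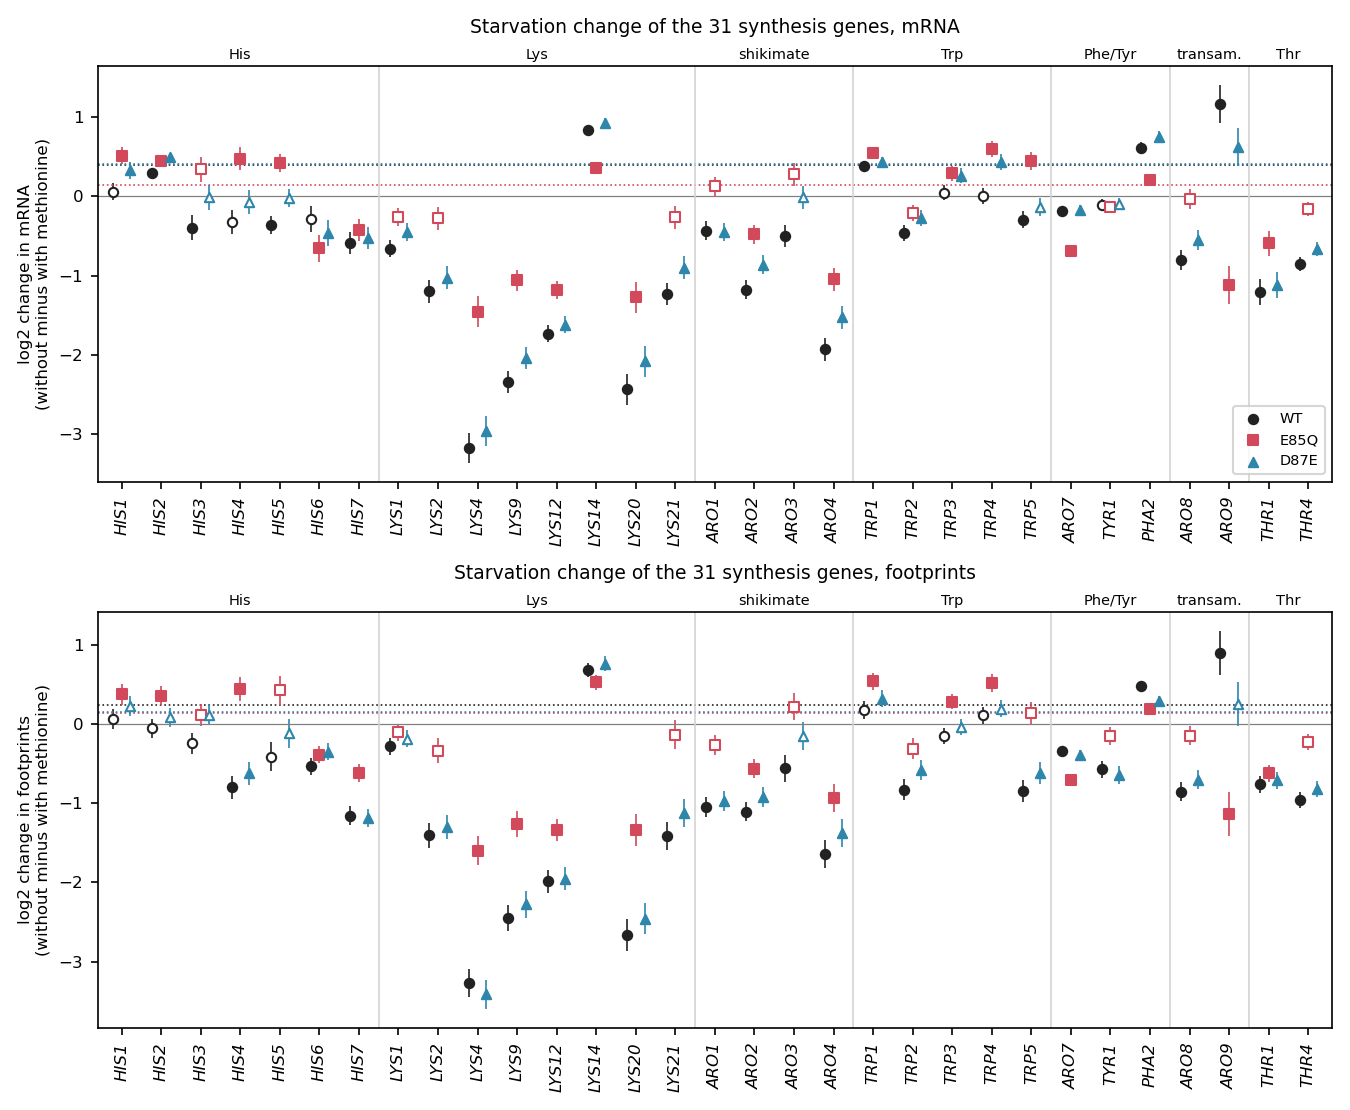
Starvation change of each member in mRNA (top) and footprints (bottom), as the log2 difference without minus with methionine, for WT (circles), E85Q (squares) and D87E (triangles). Filled points were called at an adjusted p below 0.05, bars are SE, dotted lines are the medians of all tested genes; LYS4 lies lowest in WT mRNA at -3.17 and ARO9 is the member that rises in WT and falls in E85Q.

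With methionine, 20 members were lower in E85Q mRNA than in WT and 1 (ARO7) was higher, with a median difference of -0.50 against 0.11 for all genes. Of all genes, 6.2% were lower and 22.4% higher. Footprints had 12 members lower and 0 higher (median -0.48, background 3.54% down and 4.07% up). Both E85Q samples lay below both WT samples for 25 of the 31 members in mRNA and for 25 in footprints, against 17.4% and 23.5% of all genes. The 6 exceptions were HIS6, LYS14, TRP1, ARO7, TYR1 and PHA2 in both assays. Centring on the median of all genes gave 23 lower members in mRNA and 12 in footprints, and left ARO7 uncalled. The number of calls fell in both assays whichever sample of these groups was left out. That leaves 1 sample in a group and widens the SE, so lost calls do not show that a difference rests on that sample. TRP4 and TRP5 mRNA kept their calls with each sample left out. The size of the difference moved less, the members' median staying between -0.57 and -0.42 in mRNA and between -0.54 and -0.44 in footprints with any 1 sample of these groups left out.

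After starvation 5 of the 8 lysine genes were higher in E85Q than in WT in mRNA. ARO9 was called lower in E85Q in both media and both assays, and LYS1 in both media in footprints. In mRNA 5 members were higher in E85Q (LYS2, LYS4, LYS9, LYS12 and LYS21) and 4 lower (LYS14, ARO7, ARO9 and PHA2), with 15.7% of all genes higher and 45.5% lower. The share of members called higher was thus near that of all genes, and the share called lower was below it. Relative to the median of all genes, 13 were higher and 2 lower (LYS14 and ARO9), and ARO7 and PHA2 were no longer called. In footprints 9 members were higher (HIS4, TYR1, THR4 and the lysine genes LYS2, LYS4, LYS9, LYS12, LYS20 and LYS21) and 3 lower (LYS1, ARO7 and ARO9), with 20.6% and 32.5% of all genes. After centring they were 12 and 1. The footprint calls numbered 7 without WT 600 and 6 without E85Q 625, each in starved cells. In mRNA both starved E85Q samples lay above both WT samples for 11 members, below for 8 and overlapped for 12, against 25.4% of all genes above and 59.2% below.

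**Figure D2:**
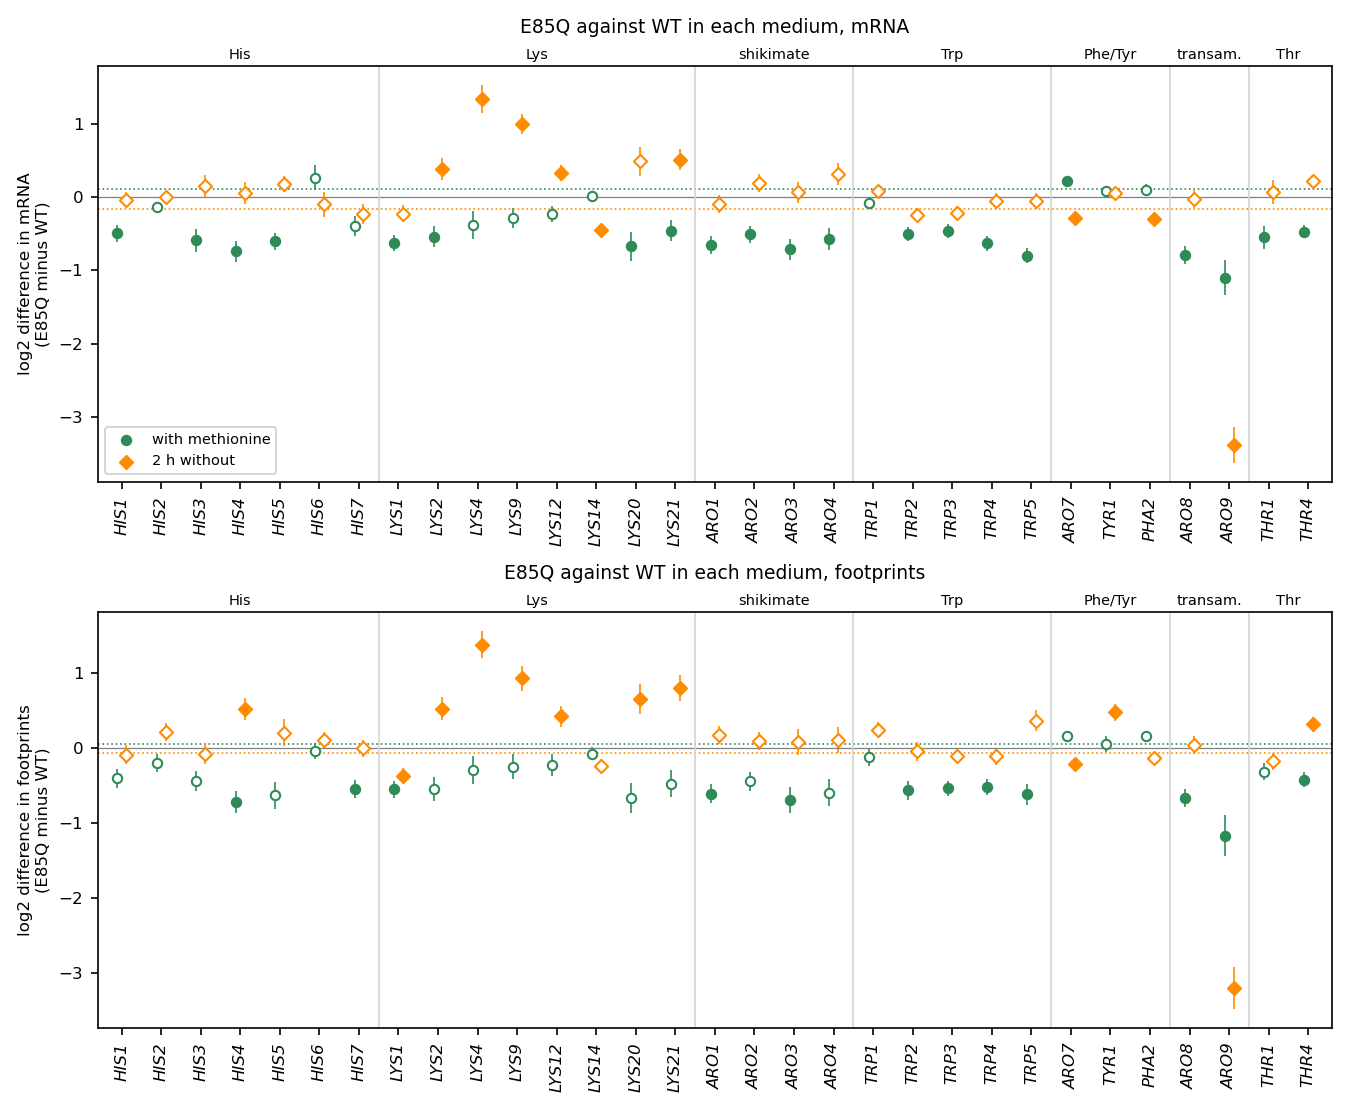
Difference between E85Q and WT (log2, E85Q minus WT) for each member in mRNA (top) and footprints (bottom), with methionine (circles) and after 2 h without it (diamonds). Filled points were called, bars are SE and dotted lines are medians of all tested genes; most circles lie below 0, the starved lysine genes other than LYS1 and LYS14 lie above it, and ARO9 reaches -3.39 in starved mRNA.

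The difference between the starvation responses of E85Q and WT was itself tested. In mRNA 20 members had a more positive response in E85Q and 4 a more negative one (LYS14, ARO7, ARO9 and PHA2), with a median of 0.58 against -0.28 for all genes and a background of 11.8% and 48.6%. Centring gave 25 more positive and 1 more negative, the latter ARO9. Of the 24 calls, 19 held with each sample left out in turn; the other 5 were HIS1, HIS3, LYS1, ARO1 and THR1, and THR1 also lost its call with the strain as a block (adjusted p = 0.0506). In footprints 18 were more positive and 3 (ARO7, ARO9 and PHA2) more negative (median 0.54, background 13.8% and 27.7%), or 22 and 1 after centring. The footprint count fell to 12 without WT 172 with methionine, WT 600 without it or E85Q 623 with it, and to 13 without starved E85Q 625, and 12 calls held throughout. Because the comparison of media and the comparison of genotypes share samples, these counts are not independent of those above.

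Lysine synthesis held the lowest mRNA starvation changes among the members, those of LYS4 and LYS20, in each genotype. Of its 8 genes, 7 fell in WT mRNA, 7 in D87E and 4 in E85Q, and LYS14 rose in each. Of all genes, 26.7% fell in WT, 25.5% in D87E and 30.3% in E85Q. The medians over the 8 genes were -1.48, -1.32 and -0.67, against 0.40, 0.41 and 0.14 for all genes. LYS4 encodes homoaconitase and lies at YDR234W on chromosome IV, 931129 to 933210 in the RefSeq R64 assembly. Its mRNA stood at 281 and 261 RPKM in WT with methionine and 32.3 and 26.3 without it, 194 and 222 and then 70.5 and 80.6 in E85Q, and 272 and 255 and then 42.4 and 25.5 in D87E. The starved samples lay far below the others in each genotype, and the starved E85Q samples lay above the starved WT and D87E samples. The change was -3.17 (SE 0.19, adjusted p = 6.45e-08) in WT, -1.45 (SE 0.19, adjusted p = 4.69e-05) in E85Q and -2.96 (SE 0.19, adjusted p = 1.1e-07) in D87E. The response differed between E85Q and WT by 1.72 (SE 0.27, adjusted p = 0.000514) and between E85Q and D87E by 1.51 (SE 0.27, adjusted p = 0.00114). LYS4 footprints stood at 292 and 283 RPKM in WT with methionine and 32.2 and 25.9 without it, 231 and 237 and then 74.0 and 79.1 in E85Q, and 287 and 274 and then 32.6 and 19.8 in D87E. They followed the mRNA, with a change of -3.27 in WT, -1.60 in E85Q and -3.41 in D87E, and again the starved E85Q samples did not overlap the others.

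LYS20 and LYS21 encode the homocitrate synthase isozymes that commit carbon to lysine. They lie at YDL182W on chromosome IV, 133437 to 134723 and at YDL131W on chromosome IV, 227393 to 228715, and since they are close paralogs, reads may have been split between them and their separate values are uncertain. LYS20 mRNA stood at 1027 and 1039 RPKM in WT with methionine and 219 and 166 without it, 599 and 703 and then 236 and 305 in E85Q, and 1024 and 942 and then 284 and 188 in D87E. LYS21 mRNA stood at 411 and 422 RPKM in WT with methionine and 193 and 162 without it, 284 and 325 and then 241 and 266 in E85Q, and 399 and 386 and then 248 and 178 in D87E. All starved samples lay below the samples with methionine of their genotype for both genes. With methionine E85Q lay below WT, and without it E85Q lay above WT, overlapping D87E. LYS20 changed by -2.43 (SE 0.20, adjusted p = 6.57e-07) in WT, -1.27 (SE 0.20, adjusted p = 0.000167) in E85Q and -2.08 (SE 0.20, adjusted p = 2.3e-06) in D87E. LYS21 changed by -1.23 (SE 0.14, adjusted p = 1.22e-05) in WT and -0.90 (SE 0.14, adjusted p = 0.000147) in D87E, and its change in E85Q of -0.26 was not called (adjusted p = 0.12). LYS20 footprints stood at 1671 and 1529.7 RPKM in WT with methionine and 287 and 221 without it, 992 and 1017 and then 385 and 409.6 in E85Q, and 1607 and 1462 and then 354 and 218 in D87E, and LYS21 footprints at 914 and 836 RPKM in WT with methionine and 372 and 289 without it, 610.2 and 645 and then 572 and 571 in E85Q, and 842 and 818 and then 467 and 307 in D87E. With methionine LYS20 footprints exceeded LYS21 footprints in every sample, and without it LYS21 exceeded LYS20 in every sample. The footprint responses of E85Q and WT differed by 1.33 (SE 0.28, adjusted p = 0.00544) for LYS20 and 1.28 (SE 0.25, adjusted p = 0.00389) for LYS21.

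LYS9 encodes the saccharopine dehydrogenase that forms saccharopine, and LYS2 the aminoadipate reductase before it. LYS9 mRNA stood at 1045 and 992 RPKM in WT with methionine and 216 and 184 without it, 809.7 and 862 and then 385 and 417 in E85Q, and 988 and 965 and then 278 and 202 in D87E, and its footprints at 1193 and 1117 RPKM in WT with methionine and 244 and 181 without it, 971 and 964 and then 399 and 403 in E85Q, and 1135 and 1112 and then 275 and 194 in D87E. Starved samples lay below those with methionine throughout, and starved E85Q lay above starved WT and D87E in both assays. In mRNA LYS9 changed by -2.35 (SE 0.14, adjusted p = 4.93e-08) in WT, -1.06 (SE 0.14, adjusted p = 4.04e-05) in E85Q and -2.04 (SE 0.14, adjusted p = 1.46e-07) in D87E. LYS2 mRNA stood at 304 and 266 RPKM in WT with methionine and 131 and 117 without it, 178 and 216 and then 151 and 173 in E85Q, and 293 and 266 and then 158 and 118 in D87E, and its footprints at 280.1 and 258 RPKM in WT with methionine and 108 and 93.7 without it, 171 and 197 and then 136 and 154 in E85Q, and 276 and 254 and then 128 and 89.5 in D87E. Starved samples were again the lower ones in each genotype, with the narrowest gap in E85Q. Its mRNA change was -1.20 (SE 0.15, adjusted p = 1.81e-05) in WT and -1.03 (SE 0.15, adjusted p = 6.1e-05) in D87E, while in E85Q -0.28 was not called (adjusted p = 0.11, or 0.0165 with the strain as a block). The footprint responses of E85Q and WT differed by 1.07 (SE 0.22, adjusted p = 0.00463).

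LYS12, homoisocitrate dehydrogenase, changed in mRNA by -1.73 in WT, -1.18 in E85Q and -1.62 in D87E (adjusted p at most 3.3e-06). LYS1, which catalyses the last step to lysine, had changes of -0.66 in WT and -0.45 in D87E that were called and of -0.26 in E85Q that was not (adjusted p = 0.0587, or 0.0194 with the strain as a block). In mRNA of each genotype, LYS4, LYS20, LYS9 and LYS12 had changes further below 0 than LYS1. LYS14 encodes the transcription activator that responds to a lysine pathway intermediate. Its mRNA stood at 39.8 and 36.2 RPKM in WT with methionine and 71.4 and 66.0 without it, 37.6 and 39.5 and then 48.9 and 50.8 in E85Q, and 37.9 and 39.0 and then 74.2 and 73.4 in D87E. All starved samples lay above those with methionine, and starved E85Q lay below starved WT and D87E. LYS14 rose by 0.84 (SE 0.06, adjusted p = 3.45e-07) in WT, 0.36 (SE 0.06, adjusted p = 0.000358) in E85Q and 0.93 (SE 0.06, adjusted p = 1.66e-07) in D87E. The response differed between E85Q and WT by -0.48 (SE 0.09, adjusted p = 0.00131), a difference no longer called after centring (-0.16, adjusted p = 0.161). LYS14 footprints, the lowest of all members in every sample other than starved E85Q 623, where ARO9 was lower, stood at 5.91 and 6.80 RPKM in WT with methionine and 9.88 and 11.8 without it, 6.11 and 5.82 and then 9.25 and 8.77 in E85Q, and 6.54 and 6.41 and then 11.5 and 11.8 in D87E, and starved samples were above the others in each genotype too. Its TE in WT with methionine was -2.56 and -2.26.

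**Figure D3:**
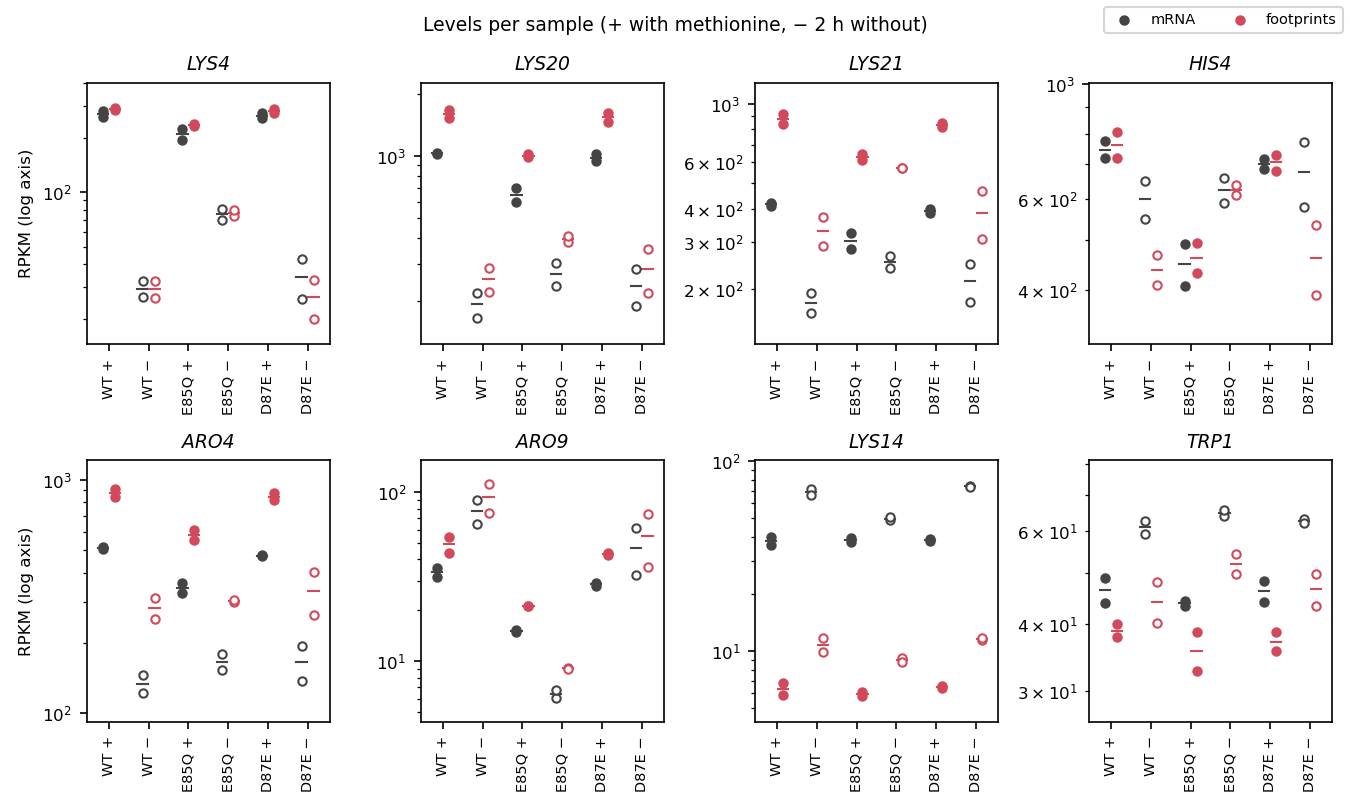
Levels of 8 members in every sample, on log RPKM axes that differ between panels, in mRNA (dark) and footprints (red). Filled points are samples with methionine (+), open points samples after 2 h without it (−), and short lines are means of 2; LYS4, LYS20, LYS21 and ARO4 are lower when starved, starved E85Q is lowest for ARO9, and footprints lie below mRNA for LYS14.

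With methionine 4 of the 7 histidine genes were lower in E85Q mRNA than in WT (HIS1, HIS3, HIS4 and HIS5), and without it 0 were called in limma (0 at an unadjusted p below 0.05). Of all genes, 6.2% were lower with methionine, and 45.5% were lower and 15.7% higher without it. In WT mRNA 3 of 7 genes fell on starvation (HIS3, HIS5 and HIS7) and 1 (HIS2, which turns to -0.11 after centring) rose, while in E85Q 4 rose (HIS1, HIS2, HIS4 and HIS5) and 2 fell (HIS6 and HIS7). In D87E HIS1 and HIS2 rose, of which HIS1 turns to -0.0686 after centring, and HIS6 and HIS7 fell. Of all genes, 60.2% rose and 26.7% fell in WT, 46.5% and 30.3% in E85Q, and 60.7% and 25.5% in D87E. The median change of the histidine genes was -0.32 in WT, -0.02 in D87E and 0.42 in E85Q. It was below the median of all genes in WT and D87E and above it in E85Q. The WT rise of HIS2 was 0.30 and is not called after centring, and HIS3 and HIS5 in WT lost their calls without WT 172 with methionine or starved WT 600 (HIS3 also without WT 600 with methionine). HIS4 encodes the enzyme with several steps of the pathway, including the last, and lies at YCL030C on chromosome III, 65934 to 68333. HIS4 mRNA stood at 774 and 717 RPKM in WT with methionine and 649 and 548 without it, 407 and 489 and then 588 and 659 in E85Q, and 715 and 685 and then 773 and 577 in D87E. With methionine both E85Q samples lay below all WT and D87E samples, and without it the genotypes overlapped. The E85Q difference from WT was -0.74 (SE 0.15, adjusted p = 0.00823) with methionine and 0.06 (SE 0.15, adjusted p = 0.739) without. On starvation HIS4 mRNA rose in E85Q by 0.48 (SE 0.15, adjusted p = 0.0128), while the change in WT of -0.32 was not called (adjusted p = 0.0636, or 0.0250 with the strain as a block). HIS4 footprints stood at 806 and 719 RPKM in WT with methionine and 466 and 408 without it, 430.0 and 491 and then 611 and 638 in E85Q, and 729.7 and 679.5 and then 533 and 390.3 in D87E. The starved E85Q samples lay above all starved WT and D87E samples, so here the groups that overlapped in mRNA did not overlap in footprints. The footprints changed by -0.80 (SE 0.15, adjusted p = 0.000455) in WT, -0.63 (SE 0.15, adjusted p = 0.0024) in D87E and 0.44 (SE 0.15, adjusted p = 0.0189) in E85Q, and the difference in response between E85Q and WT was 1.24 (SE 0.21, adjusted p = 0.00177). The E85Q rise of HIS4 lost its call without E85Q 623 with methionine or without starved 625 in both assays, and in footprints also without starved 623.

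HIS1, ATP phosphoribosyltransferase and the first enzyme, had mRNA differences of -0.49 (adjusted p = 0.0118) with and -0.04 (adjusted p = 0.766) without methionine between E85Q and WT. HIS3, the dehydratase, and HIS5, the aminotransferase, showed -0.59 and -0.60 with methionine, both called, and 0.15 and 0.18 without, neither called. HIS7, the glutamine amidotransferase and cyclase of the pathway, fell on starvation in every genotype and more in footprints (-1.16 in WT and -1.19 in D87E) than in mRNA (-0.58 and -0.53); its TE changed by -0.57 (SE 0.09, adjusted p = 0.00058) in WT. HIS6, the isomerase and the member with the lowest mRNA level in every WT and D87E sample, ran at 9.95 to 18.4 RPKM over all samples, and its mRNA differences between E85Q and WT were not called in either medium (0.27 with methionine, adjusted p = 0.24). HIS2, histidinol phosphatase, had E85Q differences from WT of -0.14 with methionine and 0.01 without, neither called.

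The shikimate trunk, ARO1 to ARO4, fell in starved WT mRNA for 4 of 4 genes, in D87E for 3 (ARO1, ARO2 and ARO4) and in E85Q for 2 (ARO2 and ARO4). Of all genes, 26.7% fell in WT, 25.5% in D87E and 30.3% in E85Q. With methionine 4 of 4 trunk genes were lower in E85Q than in WT, and without it 0 were called in either direction in limma (0 also at an unadjusted p below 0.05). The all-gene shares were 6.2% lower with methionine, and 45.5% lower and 15.7% higher without it. ARO3 and ARO4 encode the DAHP synthases that start the trunk, which are paralogs inhibited by phenylalanine and by tyrosine respectively. ARO3 mRNA stood at 405 and 349 RPKM in WT with methionine and 291 and 244 without it, 214 and 246 and then 286 and 272 in E85Q, and 350.2 and 320.2 and then 382 and 288 in D87E, and its footprints at 423 and 375 RPKM in WT with methionine and 309.7 and 234 without it, 232 and 258 and then 272 and 298 in E85Q, and 390.4 and 360.5 and then 404 and 282 in D87E. In WT the starved samples lay below those with methionine, in E85Q they lay above, and in D87E they overlapped. ARO3 changed by -0.50 (SE 0.14, adjusted p = 0.0071) in WT mRNA, a call lost without WT 172 with methionine or without starved WT 600, and by 0.28 in E85Q, which was not called (adjusted p = 0.0944, or 0.0322 with the strain as a block). ARO4 mRNA stood at 517 and 506 RPKM in WT with methionine and 145 and 122 without it, 326 and 362 and then 154 and 179 in E85Q, and 477 and 469.7 and then 195 and 137 in D87E, and its footprints at 913 and 845 RPKM in WT with methionine and 312 and 252 without it, 552 and 609 and then 299.5 and 304 in E85Q, and 877 and 816 and then 402 and 262 in D87E. Starved samples were lower in each genotype without overlap. ARO4 mRNA changed by -1.93 (SE 0.15, adjusted p = 4.54e-07) in WT, -1.05 (SE 0.15, adjusted p = 9.02e-05) in E85Q and -1.53 (SE 0.15, adjusted p = 2.98e-06) in D87E, further below 0 than those of ARO3 in each. ARO2, chorismate synthase, changed by -1.18, -0.48 and -0.86 in WT, E85Q and D87E mRNA, all called. ARO1, the multifunctional enzyme of the trunk, changed more in footprints (-1.05 in WT and -0.97 in D87E) than in mRNA (-0.43 and -0.45).

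In mRNA 4 of the 5 tryptophan branch genes rose in E85Q (TRP1, TRP3, TRP4 and TRP5), 3 in D87E (TRP1, TRP3 and TRP4, of which TRP3 turns to -0.14 after centring) and 1 in WT (TRP1, which turns to -0.02 after centring), and 2 fell in WT (TRP2 and TRP5). Of all genes, 46.5% rose in E85Q, 60.7% in D87E and 60.2% in WT, and 26.7% fell in WT. The D87E rises were thus near the all-gene share. After centring, TRP1 in WT was not called, TRP3 and TRP4 in WT turned from 0.05 and 0.01 to called changes of -0.36 and -0.39, and 0 rises were called in D87E. TRP1, the isomerase, stood in mRNA at 48.9 and 43.8 RPKM in WT with methionine and 62.6 and 59.2 without it, 44.2 and 43.3 and then 63.8 and 65.5 in E85Q, and 44.1 and 48.3 and then 63.0 and 62.0 in D87E, and in footprints at 37.8 and 40.0 RPKM in WT with methionine and 48.1 and 40.2 without it, 38.6 and 32.6 and then 54.3 and 49.7 in E85Q, and 38.6 and 35.6 and then 49.8 and 43.3 in D87E. In both assays starved samples lay above those with methionine in each genotype. With methionine E85Q and WT overlapped, and TRP1 was the only tryptophan gene for which they did. TRP1 mRNA changed by 0.39 (SE 0.07, adjusted p = 0.000242) in WT, 0.55 (SE 0.07, adjusted p = 2.46e-05) in E85Q and 0.43 (SE 0.07, adjusted p = 0.000112) in D87E. With methionine the mRNA differences between E85Q and WT were -0.50 for TRP2, which makes anthranilate with TRP3, -0.46 for TRP3, -0.63 for TRP4, the phosphoribosyltransferase, and -0.80 for TRP5, tryptophan synthase, all called. Without methionine they were -0.24, -0.21, -0.05 and -0.05, none called. Of all genes, 6.2% were lower in E85Q with methionine and 45.5% without it.

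The branch from chorismate to phenylalanine and tyrosine had 0 of 3 genes lower in E85Q than in WT with methionine in limma (0 at an unadjusted p below 0.05). Of all genes, 6.2% were lower and 22.4% higher in mRNA, so 0 of 3 does not set the branch apart from all genes. The mRNA differences between E85Q and WT were 0.22 for ARO7, chorismate mutase, 0.09 for TYR1, prephenate dehydrogenase, and 0.10 for PHA2, prephenate dehydratase; only ARO7 was called, and not after centring. PHA2 mRNA stood at 19.3 and 19.3 RPKM in WT with methionine and 31.4 and 28.9 without it, 20.0 and 21.6 and then 24.0 and 24.5 in E85Q, and 17.8 and 18.5 and then 33.3 and 29.3 in D87E, and its footprints at 24.3 and 24.2 RPKM in WT with methionine and 33.3 and 35.0 without it, 27.4 and 26.9 and then 32.8 and 29.2 in E85Q, and 26.0 and 24.6 and then 30.4 and 31.9 in D87E. Starved samples lay above those with methionine in each genotype and assay. PHA2 mRNA rose by 0.62 (SE 0.07, adjusted p = 1.24e-05) in WT, 0.21 (SE 0.07, adjusted p = 0.0212) in E85Q and 0.75 (SE 0.07, adjusted p = 2.45e-06) in D87E; the E85Q rise was not called after centring. ARO7 mRNA changed by -0.19 in WT, -0.69 in E85Q and -0.16 in D87E, all called, and its response was more negative in E85Q than in WT by -0.50 (SE 0.09, adjusted p = 0.00104), a difference not called after centring (adjusted p = 0.0954). TYR1 mRNA was not called in any starvation comparison, and its footprints changed by -0.58 (SE 0.11, adjusted p = 0.000607) in WT and -0.65 (SE 0.11, adjusted p = 0.000279) in D87E.

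ARO8 and ARO9 encode paralogous aromatic aminotransferases, of which ARO9 also serves the breakdown of aromatic amino acids and is induced by them through the activator Aro80. ARO8 mRNA stood at 647 and 583 RPKM in WT with methionine and 372 and 332 without it, 329 and 383 and then 344 and 349 in E85Q, and 553 and 545 and then 432 and 327 in D87E, and its footprints at 772 and 685 RPKM in WT with methionine and 424 and 378 without it, 430.1 and 484 and then 400.1 and 423 in E85Q, and 721 and 691 and then 481 and 389 in D87E. In WT and D87E starved samples were the lower ones in both assays, and E85Q with methionine lay below WT. ARO8 mRNA changed by -0.80 (SE 0.13, adjusted p = 0.000143) in WT and -0.55 (SE 0.13, adjusted p = 0.00221) in D87E, and by -0.03 in E85Q, which was not called (adjusted p = 0.817). ARO9 (YHR137W on chromosome VIII, 375709 to 377250) mRNA stood at 35.9 and 31.4 RPKM in WT with methionine and 64.7 and 90.4 without it, 15.3 and 15.0 and then 6.09 and 6.76 in E85Q, and 29.2 and 27.8 and then 32.2 and 61.6 in D87E. Starved samples were higher in WT and D87E and lower in E85Q, and E85Q lay below the other genotypes in both media. ARO9 footprints stood at 54.5 and 44.0 RPKM in WT with methionine and 75.3 and 112 without it, 21.2 and 21.2 and then 9.13 and 9.02 in E85Q, and 44.0 and 42.7 and then 36.0 and 74.5 in D87E. They gave the same order, except that in D87E the media overlapped. In mRNA ARO9 rose in WT by 1.16 (SE 0.24, adjusted p = 0.000934), fell in E85Q by 1.12 (SE 0.24, adjusted p = 0.00157), and changed in D87E by 0.63 (SE 0.24, adjusted p = 0.0308). The D87E call was lost without any 1 of D87E 887 with methionine, 888 with methionine and starved 888, the last leaving 0.17, and it was also lost after centring. The E85Q difference from WT was -1.10 (SE 0.24, adjusted p = 0.0108) with methionine and -3.39 (SE 0.24, adjusted p = 4.12e-06) without, the latter 10.4-fold on the log2(RPKM + 1) scale. The responses differed by -2.28 (SE 0.34, adjusted p = 0.000396) in mRNA and -2.03 (SE 0.39, adjusted p = 0.0036) in footprints. In footprints the WT rise of 0.89 lost its call without WT 600 with or without methionine. The starved strains of a genotype also stood apart for ARO9, at 64.7 and 90.4 RPKM in WT and 32.2 and 61.6 in D87E.

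Threonine synthesis takes THR1, homoserine kinase, and THR4, threonine synthase. THR1 mRNA changed by -1.21 (SE 0.16, adjusted p = 3.65e-05) in WT, -0.59 (SE 0.16, adjusted p = 0.00665) in E85Q and -1.12 (SE 0.16, adjusted p = 6.74e-05) in D87E, and THR4 by -0.85 (SE 0.09, adjusted p = 4.81e-06), -0.16 (adjusted p = 0.117, or 0.0376 with the strain as a block) and -0.66 (SE 0.09, adjusted p = 3.39e-05). THR1 mRNA stood at 194 and 227 RPKM in WT with methionine and 101 and 80.3 without it, 134 and 154 and then 89.2 and 100.4 in E85Q, and 186 and 203 and then 105 and 75.3 in D87E. THR4 mRNA stood at 166 and 152 RPKM in WT with methionine and 90.8 and 84.9 without it, 112 and 118 and then 102 and 103 in E85Q, and 167 and 149.8 and then 108 and 91.9 in D87E. Starved samples were lower in each genotype for both genes, and E85Q with methionine lay below WT. The E85Q difference from WT was -0.55 (SE 0.16, adjusted p = 0.0315) for THR1 and -0.47 (SE 0.09, adjusted p = 0.00695) for THR4 with methionine, and 0.07 and 0.22 without, neither called.

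D87E had 0 of 31 members called against WT in limma in mRNA, footprints or TE in either medium, where at most 0.143% of all genes were called (0% and 0.0614% in mRNA and footprints with methionine, 0% in both without it, and 0.143% and 0.0205% in TE); at an unadjusted p below 0.05 there were 0 with and 3 without methionine in mRNA, 0 and 1 in footprints and 0 and 2 in TE. The members' median difference in mRNA was -0.09 with and 0.12 without methionine, with a median SE of 0.119. Leaving out starved D87E 888 gave 5 called members in mRNA and 4 in footprints for the comparison without methionine. In the difference of responses between D87E and WT 0 members were called in limma, with 3, 0 and 2 at an unadjusted p below 0.05 in mRNA, footprints and TE, and with a median SE of 0.169 in mRNA. These results do not show that D87E and WT were alike. Against D87E, E85Q had 16 members lower and 0 higher in mRNA with methionine (background 4.44% down and 13.2% up) and 9 lower in footprints (2.7% down and 1.86% up). In mRNA these became 0 without E85Q 623, 1 without D87E 887 and 3 without D87E 888, and in footprints 0 without any 1 of the 4 samples. Without methionine 2 members were higher and 7 lower in mRNA (background 13.3% and 46.7%; 8 and 3 after centring; 15 in all without starved D87E 888), and 6 and 4 in footprints (22.3% and 24.4%; 5 and 4 in all without starved E85Q 623 and 625). The responses of E85Q and D87E differed for 12 members upward and 4 downward in mRNA (background 10% and 47.7%), and 13 and 2 in footprints (16.4% and 18.8%). After centring the mRNA counts were 23 and 2. The total of 16 in mRNA became 9 without E85Q 623 with methionine, 10 without starved E85Q 625 and 10 without D87E 887 with methionine. The total of 15 in footprints became 9, 7 and 23 without E85Q 623 with methionine, D87E 887 with methionine and starved D87E 887.

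No member had a called change in translational efficiency of 1 or more on the log2 scale. On starvation 11 members fell and 3 rose in WT (median -0.15 against -0.12 for all genes, background 36.6% down and 16.7% up), and 16 fell and 2 rose in D87E (median -0.24 against -0.23, background 47.9% and 13.1%). In E85Q 1 member was called, ARO1, at -0.40 (SE 0.07, adjusted p = 0.011), against 6.2% of all genes, and it lost the call without E85Q 623 or 625 with methionine or starved 625. The shares that fell in WT and D87E are near those of all genes, and centring reduced the falls to 5 in WT and 5 in D87E, with 4 and 4 rises. Leaving out WT 600 gave 8 calls (with methionine) or 7 (starved) in WT. The members lowest in WT were ARO1 (-0.61), HIS7 (-0.57), TRP5 (-0.55), HIS4 (-0.48) and TYR1 (-0.47), and those that rose were THR1 (0.45), LYS1 (0.38) and ARO4 (0.29). HIS4, HIS7, LYS1, TRP5, ARO1 and TYR1 kept their WT calls with each sample left out. The TE of HIS4 stood at 0.06 and 0.00 in WT with methionine and -0.48 and -0.42 without it, 0.08 and 0.01 and then 0.06 and -0.05 in E85Q, and 0.03 and -0.01 and then -0.54 and -0.56 in D87E. With methionine the genotypes overlapped near 0, and without it WT and D87E lay below E85Q. The TE of TYR1 stood at 0.47 and 0.48 in WT with methionine and -0.03 and 0.04 without it, 0.41 and 0.47 and then 0.37 and 0.46 in E85Q, and 0.70 and 0.48 and then 0.11 and -0.05 in D87E. It showed the same order, with starved E85Q above starved WT and D87E.

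Between E85Q and WT, 0 members differed in TE with methionine in limma (0 at an unadjusted p below 0.05), where 0.143% of all genes were called. Without methionine 5 members were higher in E85Q and 0 lower, against 24% and 12% of all genes: HIS4 (0.46), TRP5 (0.42), TYR1 (0.41), LYS21 (0.28) and ARO1 (0.26). The share of members called higher was thus below that of all genes. HIS4 and TRP5 kept that call with each sample left out, and the total was 3 without starved WT 600 and 2 without starved E85Q 625. After centring 3 were higher and 1 (ARO4) lower. The response difference was called for HIS4, 0.44 (SE 0.10, adjusted p = 0.0143), and TYR1, 0.44 (SE 0.13, adjusted p = 0.0357), against 17.4% of all genes upward and 4.44% downward; TYR1 lost it without any 1 of the 4 WT samples, the 2 E85Q samples with methionine and starved E85Q 625, and HIS4 kept it throughout. These 2 calls were below the upward share of all genes. After centring the total was 0 upward and 1 downward, and neither HIS4 nor TYR1 was called. Against D87E, 0 members differed with methionine in limma (0 at an unadjusted p below 0.05, 0.675% of all genes called). Without methionine 10 were higher, near the all-gene share of 35.8%, and 1 (THR1) lower (8.86% of all genes), or 2 and 5 after centring. The latter total of 11 was 4 without starved E85Q 623, 6 without 625, 5 without D87E 887 and 4 without 888, each starved. The response difference from D87E was called for 7 members and more positive in E85Q (HIS4, HIS7, LYS4, TRP3, ARO9, TYR1 and PHA2). That was below the all-gene share of 32.9% upward, with 4.48% downward. With the strain as a block 4 were called, and TRP3, ARO9 and PHA2 were not. After centring 0 were called upward and 2 downward. The count was 3 without E85Q 623 in either medium or D87E 887 with methionine, 4 without starved E85Q 625, and 2 without D87E 888 with methionine or starved 887.

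**Figure D4:**
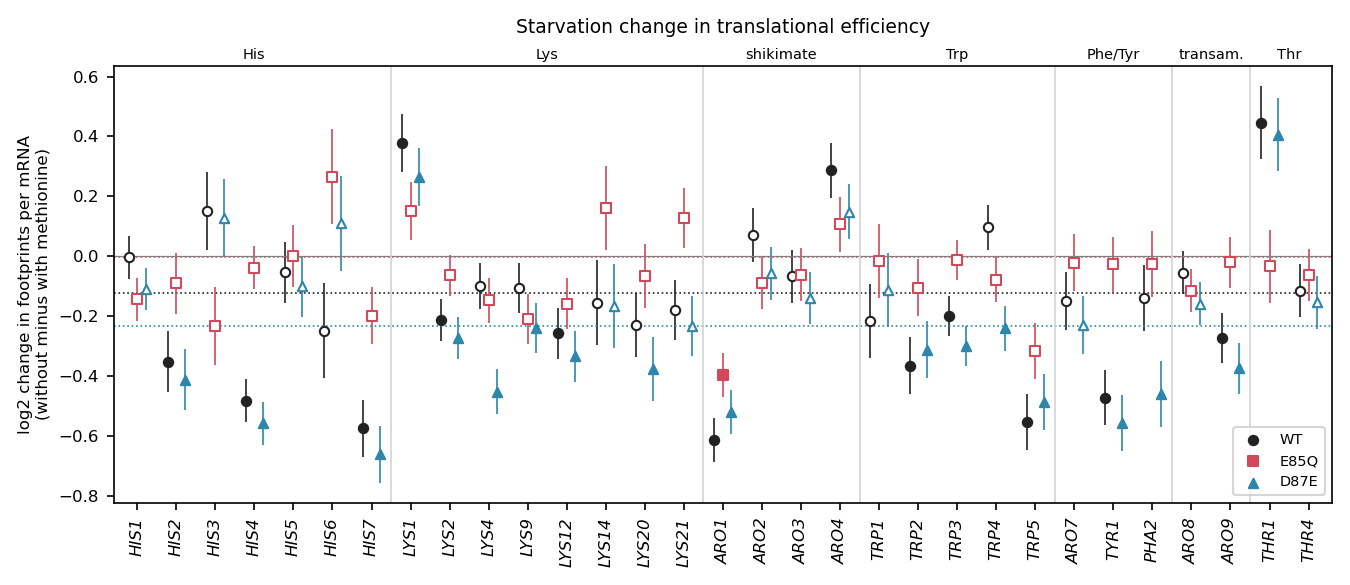
Starvation change in translational efficiency (log2 footprints per mRNA, without minus with methionine) of each member in WT (circles), E85Q (squares) and D87E (triangles). Filled points were called, bars are SE and dotted lines are medians of all tested genes; 14 members are filled in WT, 18 in D87E and ARO1 alone in E85Q.

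GCN4 footprints stood at 294 and 267 RPKM in WT with methionine and 309 and 284 without it, 117 and 116 and then 295 and 258 in E85Q, and 239.5 and 241 and then 433 and 169 in D87E, and its mRNA at 1283 and 1258 RPKM in WT with methionine and 632 and 586 without it, 1200.4 and 1166 and then 776 and 798 in E85Q, and 1136 and 1215 and then 759 and 633 in D87E. With methionine the E85Q footprints lay below those of WT and D87E, and the starved D87E samples lay far apart. The E85Q difference from WT with methionine was -1.26 (SE 0.32, adjusted p = 0.0415) in GCN4 footprints and -1.15 (SE 0.25, adjusted p = 0.148) in TE, the latter not called. The footprint call was lost without any 1 of the 4 samples (adjusted p = 0.149 to 0.226, differences of -1.33 to -1.18) and with no filter on low values. Its part in the members' differences was not tested. GCN4 TE rose on starvation by 1.14 in WT, 1.82 in E85Q and 0.93 in D87E (adjusted p = 0.0033, 0.00216 and 0.00842), the D87E value being 0.39 without starved 887 and 1.48 without starved 888, while GCN4 mRNA changed by -1.06, -0.59 and -0.76, all called. Of GCN4, GCN1, GCN2 and GCN20, the genes of its control, 1 (GCN2, the kinase) rose and 3 fell in mRNA of each genotype. Of all genes, 60.2% rose and 26.7% fell in WT, 46.5% and 30.3% in E85Q, and 60.7% and 25.5% in D87E.

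Upstream of threonine and shared with methionine, HOM3, aspartate kinase, rose on starvation by 2.08, 2.50 and 2.29 in WT, E85Q and D87E mRNA, and HOM6, homoserine dehydrogenase, by 2.17, 2.24 and 2.32, all called. HOM2, the step between them, changed by -1.09 and -0.92 in WT and D87E, both called, and by -0.18 in E85Q, not called. The enzymes before homoserine rose at 2 of 3 steps while THR1 and THR4 after it fell in WT and D87E. The all-gene shares that rose were 60.2% in WT, 46.5% in E85Q and 60.7% in D87E. LYS5, which activates the LYS2 enzyme, rose in mRNA by 1.82, 0.93 and 1.99 in WT, E85Q and D87E, all called. ARO10, a decarboxylase of aromatic amino acid breakdown, had E85Q differences from WT of -1.46 with and -3.72 without methionine, both called, beside the ARO9 values of -1.10 and -3.39. ARO10 mRNA stood at 24.4 and 21.7 RPKM in WT with methionine and 27.3 and 41.1 without it, 8.60 and 6.93 and then 1.62 and 1.62 in E85Q, and 19.2 and 18.8 and then 9.67 and 25.4 in D87E. Its call with methionine was lost without WT 600, E85Q 623 or E85Q 625. ARO80, the activator of both, had mRNA differences of 0.18, not called, and -0.56, called.

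The 7 cytosolic aminoacyl-tRNA synthetases that charge these amino acids (HTS1, KRS1, THS1, WRS1, TYS1, FRS1 and FRS2) fell in mRNA of every genotype, with medians of -1.53 in WT, -1.10 in E85Q and -1.41 in D87E. Of all genes, 26.7% fell in WT, 30.3% in E85Q and 25.5% in D87E. Without methionine all 7 synthetases were higher in E85Q than in WT (median 0.40), and with methionine 1 of 7, KRS1, was lower. The all-gene shares were 15.7% higher without methionine and 6.2% lower with it. The KRS1 call with methionine was lost without any 1 of the 4 samples, and that without it when starved WT 600, E85Q 623 or E85Q 625 was left out. Of 5 permeases, 4 fell in each genotype, and the tyrosine and tryptophan permease genes TAT1 and TAT2 changed furthest, by -2.79 and -2.05 in WT mRNA. GAP1, the general permease, rose in E85Q (0.85) and was not called in WT (0.08) or D87E (0.05), where centring gave called changes of -0.33 and -0.35. Its response in E85Q differed from WT by 0.78 (SE 0.10, adjusted p = 0.000178). Of the genes that use threonine, CHA1, a serine and threonine deaminase, rose by 4.96, 2.72 and 4.62 in WT, E85Q and D87E mRNA, and ILV1, threonine deaminase, changed by -0.70, -0.27 and -0.62, all called. GLY1, also on this list, stood at 0 to 13.1 RPKM in mRNA but 151 to 368 RPKM in footprints over all samples. The cause of that gap was not tested, and changes of GLY1 are not given. The ILV1 call in E85Q was lost without 625 with methionine, starved 623 or starved 625. Among comparison pathways under the same control, the 11 leucine, isoleucine and valine genes had medians of -2.41, -1.43 and -2.17 in mRNA, further below 0 than those of the members, with 11, 10 and 11 falls. The 9 arginine genes had medians of 0.53, 0.52 and 0.82, with 5, 7 and 5 rises. Of all genes, 60.2%, 46.5% and 60.7% rose in WT, E85Q and D87E, and the all-gene medians were positive too. The 5 of 9 rises in WT and D87E were thus near the all-gene share. With methionine E85Q differed from WT by a median of -0.38 in the leucine, isoleucine and valine genes (6 of 11 lower) and -0.72 in the arginine genes (7 of 9 lower). The share of all genes called lower was 6.2%. No test of a difference between these pathways and the members was made.

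Some calls of a starvation change, each in its own genotype, were lost when 1 sample was left out, which also widens the SE. Without WT 172 with methionine, HIS3, HIS5, TRP5, ARO1 and ARO3 lost their mRNA calls and LYS1 and ARO3 their footprint calls. Without WT 600 with methionine, HIS3, TRP5 and ARO7 lost their mRNA calls and LYS1 and ARO9 their footprint calls. Without starved WT 600, HIS3, HIS5, TRP5, ARO3 and ARO7 lost their mRNA calls and LYS1, ARO3 and ARO9 their footprint calls. Without E85Q 623 with methionine, HIS4, HIS5, TRP3 and PHA2 lost their mRNA calls and HIS1, HIS2, HIS4, HIS6, TRP3 and PHA2 their footprint calls. Without E85Q 625 with methionine, HIS7 and THR1 lost their mRNA calls and HIS1, HIS2 and PHA2 their footprint calls. Without starved E85Q 623, HIS7 and PHA2 lost their mRNA calls and HIS2, HIS4, HIS6 and PHA2 their footprint calls. Without starved E85Q 625, HIS4, TRP3 and PHA2 lost their mRNA calls and HIS1, HIS4 and TRP3 their footprint calls. Without D87E 887 with methionine, HIS6, TRP2, ARO7 and ARO9 lost their mRNA calls and HIS6 its footprint call. Without D87E 888 with methionine, HIS1, TRP3, ARO7 and ARO9 lost their mRNA calls and TRP1 its footprint call. Without starved D87E 887, HIS1 and TRP3 lost their mRNA calls and TRP1 its footprint call. Without starved D87E 888, HIS6, TRP2, ARO7 and ARO9 lost their mRNA calls and HIS6 its footprint call. LYS4, LYS9, LYS12, LYS14, LYS20, ARO2 and ARO4 kept their calls in each genotype and both assays with every single sample left out. For E85Q against WT without methionine in mRNA, LYS2, LYS12 and LYS21 lost theirs without starved WT 600 or starved E85Q 625, and LYS2 also without starved WT 172.

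With the strain as a block, some further members were called. In footprints these were HIS3 and HIS5 on starvation in WT, HIS5, LYS2, TRP2, ARO1 and THR4 in E85Q and TRP4 in D87E, with HIS2, TRP4 and TYR1 for the response of E85Q minus WT and TRP3 and TRP4 for E85Q minus D87E (adjusted p = 0.0139 to 0.0492). In mRNA TRP2 was also called in E85Q (adjusted p = 0.0252) and for the response of E85Q minus WT (0.0486), and ARO4 for E85Q minus D87E (0.0410). In TE LYS20 was called in WT (adjusted p = 0.0450), LYS21 and ARO7 in D87E (0.0459 and 0.0354) and HIS7 for the response of E85Q minus WT (0.0433).

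Within groups, the members moved together between strains. In starved WT strain 172 lay above 600 for 29 of 31 members in mRNA and 28 in footprints, with median gaps of 0.17 and 0.22 on the log2 scale. The all-gene shares were 54.1% and 47.4%. In starved D87E strain 887 lay above 888 for 30 and 28 (51% and 47.3% of all genes), with gaps of 0.31 and 0.35. Over all genes the median gaps in mRNA were 0.00936 and 0.00447. In E85Q strain 623 lay below 625 for most members, being the higher for 6 with and 3 without methionine in mRNA. In footprints it was the higher for 10 and 9. Of all genes, 58.9% and 66.1% were higher in 623 in mRNA, and 60.4% and 57.4% in footprints. GCN4 footprints of the starved D87E strains were 433 and 169 RPKM. The members are therefore not separate observations of a condition.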

How the data were processed

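RNA-seq and ribosome profiling were compared in 6 groups of 2 samples. The deposited values are RPKM per gene and library, which the authors computed with footprints of 18 to 34 nt, per the labels. Per the labels' protocols, both libraries of a pair came from 1 biological sample, mRNA libraries were stranded and rRNA-depleted, and reads were 50 bases. The submitters' processing notes name Bowtie 1.1.2, TopHat, TopHat2 2.1.1 and sacCer3. Positions were masked, per the names of the deposited tables; which ones, and which reads enter the scaling, is not given in the sources used here.

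From the deposited RPKM of 7133 entries (6304 with values), those averaging 5 RPKM or more in each assay were kept, which left 4888 genes and all 31 members. No member overlaps another protein-coding gene in RefSeq R64. Values were taken as log2(RPKM + 1) and fitted with limma 3.58.1 in R 4.3.3 (group means, eBayes with trend) for mRNA, footprints and TE; all 6 groups share an estimate of the spread. The 12 comparisons were adjusted over all genes by Benjamini-Hochberg. The script was tested on simulated data. Depth was recovered from low values (33 bases left out per gene, whole reads within a tolerance of 0.05; 68.7% to 82.7% of values up to 15 reads were whole), so that 3 reads in a gene of 1 kb are worth 0.037 to 0.141 RPKM, counting error only.

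The groups share strain numbers within a genotype, and same-numbered samples are the same strain, so the strain pairs the media. The correlation of deviations between media over tested genes was -0.183 to 0.172 in mRNA, -0.0243 to 0.409 in footprints and -0.045 to 0.367 in TE. Over the members it was -0.508 to 0.299 in mRNA, 0.029 to 0.361 in footprints and -0.137 to 0.564 in TE. Alternatives were pseudocounts of 0.1 and 10, no filter and a mean RPKM of at least 20, centring on the median, trimmed-mean (TMM) factors applied as a scale, the strain as a block, the groups compared alone, and each sample left out. Where that leaves a group with 1 sample, that sample is assumed to vary like the other groups. The members, lists and alternatives were chosen with earlier results of these data known. Values per sample are printed for 13 members: the 3 highest and 3 lowest in mean mRNA starvation change, those with a called response difference of at least 1 on the log2 scale, and 3 paralog pairs; other values per sample (THR1, THR4, HIS4 and TYR1 in TE, ARO10) were added after they were seen. Plots were drawn with matplotlib 3.10.9 (Python 3.11.15), tables with pandas 2.3.3. Promoter and protein sequences were not used here.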

Additional observations from a re-analysis of the deposited data

Results flagged for a closer look

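The starvation responses of 2 genotypes differed, by the test of that difference in limma, in the results listed here; their values per sample stand above. Between E85Q and WT 24 members differed in mRNA, 21 in footprints and 2 in TE, and between E85Q and D87E 16, 15 and 7. Of all genes, 11.8% in mRNA, 13.8% in footprints and 17.4% in TE had a more positive response in E85Q than in WT. A more negative one was called for 48.6%, 27.7% and 4.44%. Against D87E the all-gene shares were 10%, 16.4% and 32.9% upward and 47.7%, 18.8% and 4.48% downward. Both TE counts were below the upward shares of all genes. Single members are named where the difference was at least 1 on the log2 scale.

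In mRNA the response of E85Q minus that of WT was 1.72 for LYS4, 1.29 for LYS9, 1.16 for LYS20 and -2.28 for ARO9. E85Q minus D87E gave 1.51 for LYS4 and -1.75 for ARO9. In footprints E85Q minus WT was 1.24 for HIS4, 1.07 for LYS2, 1.67 for LYS4, 1.18 for LYS9, 1.33 for LYS20, 1.28 for LYS21 and -2.03 for ARO9. E85Q minus D87E in footprints was 1.07 for HIS4, 1.81 for LYS4, 1.01 for LYS9, 1.12 for LYS20 and -1.39 for ARO9. The last of these lost its call when any 1 of the E85Q samples or D87E samples with methionine was left out, and LYS20 when D87E 887 with methionine was. Groups of 2 samples allow no test for a single outlying sample.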

How the results depend on the processing

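Limits: with 2 samples a group, many counts between genotypes changed when a sample was left out. Leaving out a sample also widens the SE, so a changed count does not show that a difference rests on that sample. RPKM shares do not measure total mRNA, and every member value rests on 215 reads or more. The cause of the changes below was not tested.

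Counts of called members that moved by over 1.5 times are these. Centring gave 15 for E85Q against WT without methionine in mRNA, 25 for the response difference E85Q minus D87E in mRNA, and in TE 9 for WT, 9 for D87E, 1 for the response E85Q minus WT and 2 for E85Q minus D87E. TMM gave 15 for E85Q against WT without methionine and 25 for the response E85Q minus D87E in mRNA, and in TE 8 for D87E and 2 for the response E85Q minus D87E. A pseudocount of 10 gave 2 for TE in E85Q and 4 for the TE response E85Q minus WT. Without a filter the footprint counts were 7 for E85Q against WT with methionine and 13 for the response E85Q minus WT. With the strain as a replicate block the TE response E85Q minus D87E gave 4; no other count moved by over 1.5 times under the block. The groups compared alone gave 14 in mRNA and 3 in TE for E85Q against WT without methionine, 22 in footprints with it, 0 for TE in E85Q and 3 for the TE response E85Q minus D87E. For E85Q against D87E with methionine, leaving out the filter gave 9 in mRNA and 1 in footprints, and the groups compared alone gave 22 in footprints. For E85Q against D87E without methionine, the groups compared alone gave 4 in footprints and 5 in TE, where centring gave 7 and TMM 6.

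Leaving out each sample in turn, the counts ran, in mRNA, from 20 to 26 for starvation in WT, 18 to 20 for E85Q, 21 to 25 for D87E, 2 to 18 for E85Q against WT with methionine, 6 to 10 for E85Q against WT without methionine, 0 to 5 for D87E against WT without methionine, 19 to 24 for the response E85Q minus WT, 9 to 21 for E85Q minus D87E. In footprints they ran from 22 to 26 for starvation in WT, 14 to 16 for E85Q, 21 to 25 for D87E, 0 to 3 for E85Q against WT with methionine, 6 to 15 for E85Q against WT without methionine, 0 to 4 for D87E against WT without methionine, 12 to 24 for the response E85Q minus WT, 7 to 23 for E85Q minus D87E. In TE they ran from 7 to 11 for starvation in WT, 0 to 1 for E85Q, 12 to 17 for D87E, 2 to 4 for E85Q against WT without methionine, 1 to 3 for the response E85Q minus WT, 2 to 5 for E85Q minus D87E. For D87E against WT with methionine and the response D87E minus WT they stayed at 0 in mRNA, footprints and TE, as did TE for E85Q against WT with methionine and D87E against WT without it.

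Scaling turned the sign of single genes. Centring gave in mRNA HIS1 -0.34, HIS2 -0.11, TRP1 -0.0161, TRP3 -0.36, TRP4 -0.39, GAP1 -0.33 (WT), HIS1 -0.0686, TRP3 -0.14, GAP1 -0.35 (D87E), TYR1 0.29 (response E85Q minus WT) and HIS2 0.26 (E85Q minus D87E), and in TE of D87E LYS9 0.0108, TRP4 0.0103, KRS1 0.017. TMM gave in mRNA HIS1 -0.33, HIS2 -0.0914, TRP1 -0.000219, TRP3 -0.35, TRP4 -0.38, GAP1 -0.31 (WT), HIS1 -0.076, TRP3 -0.14, GAP1 -0.35 (D87E) and HIS2 0.22 (E85Q minus D87E), and in TE HIS1 0.20, TRP3 0.00295 (WT) and LYS9 0.0235, TRP4 0.0221, KRS1 0.0275 (D87E). A pseudocount of 10 gave TAT2 0.20 in TE of E85Q. With each of the samples compared left out, GCN4 ran from -0.50 to 0.85 in footprints on starvation in D87E, and without methionine from -0.81 to 0.54 in footprints for D87E minus WT, -0.65 to 0.70 in footprints for E85Q minus D87E and -0.70 to 0.39 in TE for E85Q minus D87E, the sign turning with which starved D87E strain was left out.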
